A study of Mus musculus with 8 samples.

Results

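The cytosolic ribosomal protein genes of the mouse were followed through RNA libraries of primordial germ cells and of cells related to them. Members were taken by symbol, as names that begin with Rpl or Rps followed by a number, together with Rplp0, Rplp1, Rplp2 and Rpsa, while Rpl10l and names with -ps were left out. This gave 85 of 20153 gene identifiers. By identifier, 80 of the 85 were ribosomal protein genes in the GENCODE M21 annotation (GRCm38), 48 of the large and 32 of the small subunit. Another 4, Rps3a2, Rps3a3, Rps12l1 and Rps12l2, were annotated as processed pseudogenes. The entry named Rpl24 carries the identifier of Zbtb11, a zinc finger gene, and is not counted among the 80 ribosomal protein genes. It stays in the counts and medians given for the members. Rpl13 was not analysed here.

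RNA was sequenced from 8 libraries in 4 groups of 2. Embryonic germ cells (EGCs), pluripotent lines derived from sorted E9.5 primordial germ cells, were lines 4 and 7 of the Oct4gfpXCD1 strain at passage 6, grown in serum with LIF on mouse embryonic fibroblasts, with 500 cells per library. The iPGCs were made in vitro from BVSC embryonic stem cells at passage 21 by a hanging drop method, with 1500 cells per library. The PGCLCs, primordial germ cell-like cells, were made from BVSC stem cells at passage 21 by way of epiblast-like cells in aggregates, with 300 to 500 cells per library. The PGCs were endogenous primordial germ cells of E9.5 embryos of the Oct4gfpXCD1 strain at passage 0, with about 250 cells per library. EGCs and PGCs thus share a strain label, as do iPGCs and PGCLCs, and strain, origin and passage cannot be told apart from the group in the comparisons across these labels. The 2 libraries of a group are biological replicates per the series' design text, and each of the EGC lines is a single line. Germ cell markers were present in all groups. Of 10 markers, 8 to 10 were at 1 FPKM or more in each library, and their summed level was 219 and 335 FPKM in EGCs, 793 and 787 FPKM in iPGCs, 1655 and 805 FPKM in PGCLCs, and 632 and 1457 FPKM in PGCs. Nanos3, Prdm1, Prdm14, Tfap2c, Kit and Dppa3 were lower in both EGC libraries than in both PGC libraries, while Pou5f1, Dppa4, Dnd1 and Ifitm3 overlapped. Pou5f1 is also among the 8 pluripotent markers. These summed to 453 and 497 FPKM in EGCs and 103 and 183 FPKM in PGCs. Nanog, Tdgf1, Fgf4, Zfp42 and Dppa5a were higher in both EGC libraries than in both PGC libraries. Sox2 and Esrrb were lower in both EGC libraries, and Pou5f1 overlapped. The 8 markers summed to 637 and 544.5 FPKM in iPGCs and 907 and 466 FPKM in PGCLCs.

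A ribosome is built from ribosomal RNA and about as many different proteins as there are genes in this family. A small subunit reads the messenger RNA and a large subunit joins the amino acids, and nearly every protein is needed in 1 copy per ribosome. Many messenger RNAs of ribosomal proteins begin with a C followed by a run of pyrimidines, the 5′ terminal oligopyrimidine (TOP) motif, through which mTOR and Larp1 control their translation. Ribosomal protein genes are also known for their many processed pseudogenes, which are copied from the messenger RNA and resemble it closely.

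Start windows in RefSeq (GRCm38.p6) were found by symbol for 60 of the 80 ribosomal protein genes. A C with at least 4 further pyrimidines stood at an annotated start in 13 of the 60, or 21.7%, against 3.01% of all 27025 genes in that table. Within 10 bases of the start such a run was found in 63.3% of the 60 and in 34.4% of all genes. In the windows from 250 bases before to 50 after the start, searched on both strands, the ETS core CCGGAAG occurred in 43.3% of the 60 and 9.93% of all genes. The Sp1 box GGGCGG occurred in 61.7% against 38.2%, the YY1 core AAGATGGC in 10% against 3.19%, and the TATA box TATAAA in 11.7% against 15.7%. None of the ETS, Sp1, YY1 and TATA motifs contains another. The ETS core on its other strand, CTTCCGG, holds CTTCC, a C with 4 further pyrimidines. Counts of the ETS core and of pyrimidine runs can therefore share letters, and a match is a description of the letters in the window. The starts of 4 genes are shown because they carry the run at the annotated start and are among the higher of those that do by mean FPKM. Capitals mark the pyrimidine run from the first transcribed base, in GRCm38.p6.
Rps18 (chr17:33955656-33955725, minus strand): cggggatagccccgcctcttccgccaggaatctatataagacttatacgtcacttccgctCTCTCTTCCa
Rps15a (chr7:118116138-118116207, minus strand): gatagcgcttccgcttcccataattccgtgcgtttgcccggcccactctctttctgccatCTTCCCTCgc
Rps21 (chr2:180257319-180257388, plus strand): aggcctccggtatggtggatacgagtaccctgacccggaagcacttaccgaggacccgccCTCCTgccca
Rpl14 (chr9:120571457-120571526, plus strand): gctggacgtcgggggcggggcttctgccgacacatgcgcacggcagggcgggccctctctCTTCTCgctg

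The family held between 4.13% and 6.91% of the summed values of a library. The 80 ribosomal protein genes held 4.13% and 5.33% of the summed FPKM in EGC lines 4 and 7, 6.91% and 6.27% in iPGC libraries 1 and 2, 6.86% and 4.98% in PGCLC libraries 1 and 2, and 4.59% and 4.91% in PGC libraries 1 and 2. FPKM is the number of fragments scaled to transcript length and to sequencing depth. Both iPGC libraries lay above both EGC and both PGC libraries, whereas the PGCLC libraries lay on either side of both EGC line 7 and iPGC library 2. The group means were 4.73 ± 0.85% in EGCs, 6.59 ± 0.45% in iPGC libraries, 5.92 ± 1.33% in PGCLCs and 4.75 ± 0.22% in PGCs (SD, n = 2 each). These shares are a description and were not tested. Large subunit genes supplied 60.4% and 58.2% of the family's FPKM in EGCs, 55.8% and 54.9% in iPGC libraries, 58.8% and 56.1% in PGCLCs, and 58.8% and 56.1% in PGCs.

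Set against the other genes of the same library, the members' levels overlapped between groups. The median log2(FPKM + 1) of the 85 members exceeded that of the 11083 tested genes by 1.91 and 2.56 in EGC lines 4 and 7, by 2.66 and 2.15 in the iPGC libraries, by 2.93 and 2.25 in the PGCLC libraries and by 2.33 and 2.43 in the PGC libraries. All pairs of groups overlapped on this measure, and both PGC values lay inside the range of each of the other groups. In a bulk library fewer cells of a type and less RNA per cell cannot be told apart. The whole table shifted between groups as well, with a median log2 difference over all tested genes of 0.47 for iPGCs and 0.44 for PGCLCs against PGCs, -0.40 for EGCs against iPGCs, -0.38 for EGCs against PGCLCs, and 0.07 for EGCs against PGCs. Log2 differences of single genes are therefore given relative to that shift, with their SE, while the limma p-values and calls test the differences before it is subtracted.

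**Figure D1:**
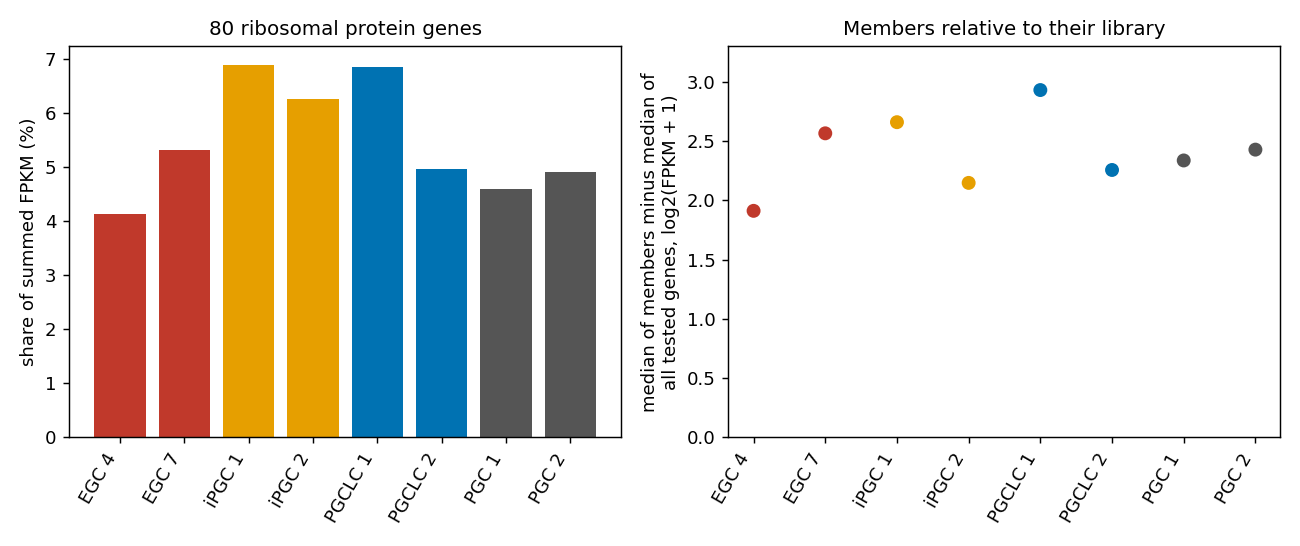
Left, share of the summed FPKM of each library held by the 80 ribosomal protein genes (%), as bars from 0. Right, median log2(FPKM + 1) of the members minus the median of all tested genes in the same library. Colours mark EGCs, iPGCs, PGCLCs and PGCs, and the share runs between 4.13% in EGC line 4 and 6.91% in iPGC library 1.

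The middle of the family differed between replicate libraries, though single genes such as Rpl22 in EGCs went the other way. The median difference over the 80 genes was -0.44 for EGC line 4 minus line 7, 0.14 for iPGC library 1 minus library 2, 0.76 for PGCLC library 1 minus library 2, and -0.44 for PGC library 1 minus library 2, on the log2(FPKM + 1) scale. The same quantity over all tested genes was -0.09 in EGCs, 0.02 in iPGCs, 0.09 in PGCLCs and 0.00 in PGCs. Gene by gene the family was ordered alike in replicates, with a Pearson r across the 80 genes of 0.959 in EGCs, 0.974 in iPGCs, 0.971 in PGCLCs and 0.921 in PGCs. These correlations run across genes, which are not independent, and carry no p. Approximate depths were 14100000 and 16200000 reads in EGCs, 2800000 and 16100000 reads in iPGCs, 7500000 and 14200000 reads in PGCLCs, and 17900000 and 15500000 reads in PGCs. They were derived from the value at the lowest 2% of length-scaled FPKM of genes with a single transcript, assumed to stand for a single read. PGC libraries 1 and 2 differed in markers of other embryonic cells. The 9 myeloid and platelet markers summed to 151 and 14.3 FPKM, with 7 and 2 of them at 1 FPKM or more, against 0.203 to 33.5 FPKM in the other groups. The 9 fibroblast markers summed to 19.7 and 0.896 FPKM and the 10 endoderm markers to 149 and 17.7 FPKM in PGC libraries 1 and 2. The sums of the 3 erythroid markers, at 2.66 and 32.7 FPKM, and of the 6 endothelial markers, at 22.8 and 56.5 FPKM, were higher in library 2. Each of these rests mostly on a single gene, Alas2 (2.26 and 32.7 FPKM) and Pecam1 (18.9 and 55.9 FPKM). Pecam1 was also at 88.4 and 62.7 FPKM in PGCLCs. Gata1, Cd34, Cdh5, Emcn, Kdr and Tie1 were higher in library 1, and Klf1 was at 0 in both. In the other groups the endoderm markers came to 120 to 316 FPKM, mostly from Apoe, Trh, Cldn6 and Spink3. Afp and Apoa1, at 82.6 and 53.0 FPKM in PGC library 1, were at most 0.0559 and 1.97 FPKM in those groups.

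Levels within the family ranged widely. The highest mean over 8 libraries was that of Rpl13a, a large subunit protein whose gene hosts small nucleolar RNAs, at 1144 FPKM. Other high means among large subunit genes were those of Rpl32 at 816 FPKM, Rpl4 at 680 FPKM and Rpl22 at 546 FPKM. At the low end Rpl3l, the paralogue of Rpl3 known from striated muscle, was listed at 0 in 7 libraries and at 0.326 FPKM in PGCLC library 1. Above it came Rps27 at 1.15, Rpl17 at 1.42, Rps6 at 2.22 and Rps12 at 2.89 FPKM. Rps6, the substrate of S6 kinase in the small subunit, thus had a value far below those of Rps2 and Rps18 of the same subunit, although a ribosome holds all of these proteins.

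**Figure D2:**
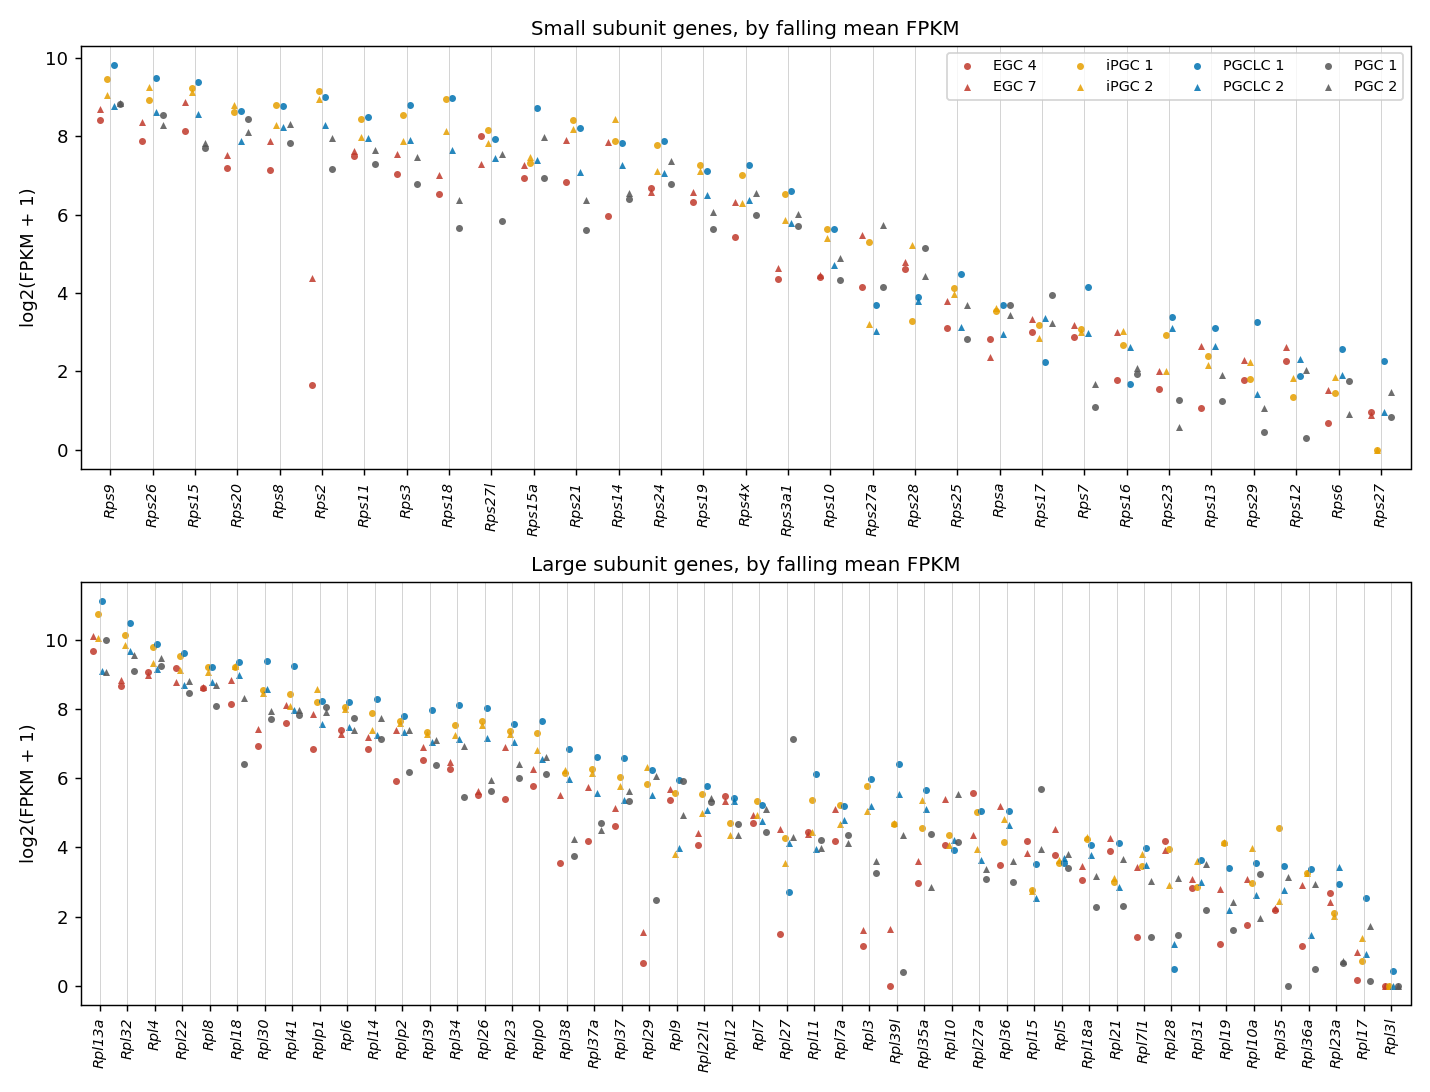
Log2(FPKM + 1) of ribosomal protein genes in each library, small subunit above and large subunit below, with genes ordered by falling mean. Circles are EGC line 4 and library 1 of the other groups, triangles EGC line 7 and library 2. Most genes keep their place across groups, and Rps2, Rpl29, Rpl3 and Rpl39l have EGC points far below the iPGC and PGCLC points.

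The level of a member went with how much of its sequence is found nowhere else. All 50-base windows of the transcripts, the length of a read, were compared with the transcripts of every other GENCODE M21 gene. The median ribosomal protein gene had 64.2% of windows unique to it, against 99.9% for 10877 tested genes. Only 3 of the 80 shared no window with a pseudogene, and the median number of sharing pseudogenes was 8, up to 121 for Rpl7a. The 18 genes with at least 80% unique windows had a median of 187 FPKM, the 36 with 50 to 80% had 35.7 FPKM, and the 26 under 50% had 23.8 FPKM. Spearman's rho across the 80 genes was 0.39 between mean FPKM and the unique share, -0.38 with the number of sharing pseudogenes and -0.05 with transcript length, as descriptions. Rps6 was unique in 15.4% of its windows. FPKM of a gene that shares reads with its copies depends on how Cufflinks divided them, so the order of levels is uncertain for such genes. The 18 genes with at least 80% unique windows, Rpl3l among them, held 1.91% and 2.08% of summed FPKM in EGCs, 2.63% and 2.38% in iPGC libraries, 2.51% and 1.99% in PGCLCs, and 1.86% and 2.21% in PGCs.

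**Figure D3:**
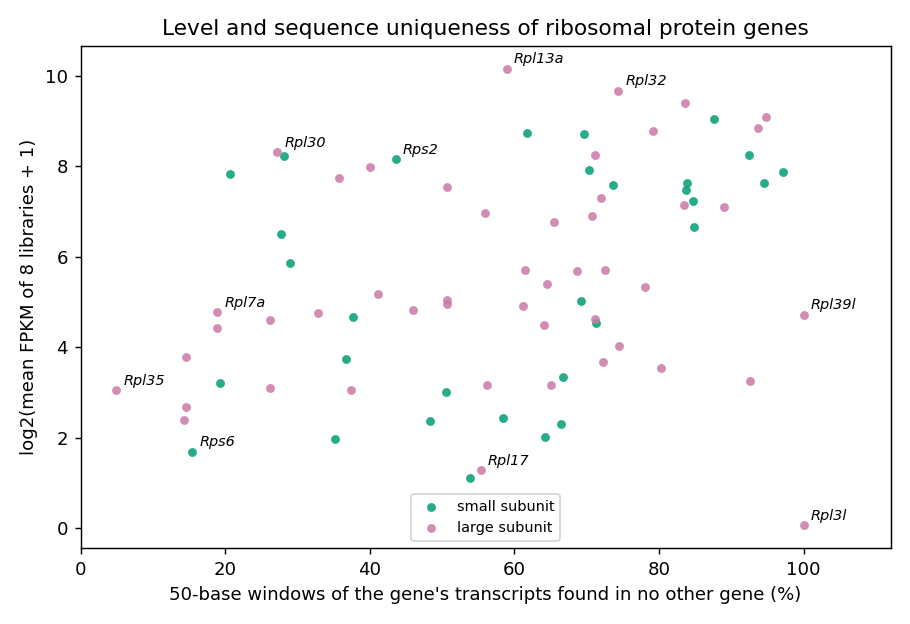
Share of a gene's 50-base transcript windows found in no other gene (%) against log2(mean FPKM of 8 libraries + 1) for ribosomal protein genes, coloured by subunit. Genes with a high unique share sit mostly in the upper right, with a few such as Rpl39l and the muscle paralogue Rpl3l below them.

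EGCs were compared with PGCs, the cells from which such lines are derived. The relative median of the members was -0.09 (25th to 75th percentile -0.46 to 0.47, against -0.72 to 0.75 for all tested genes). Before subtraction of the shift the members' median was -0.02. With a library left out it ran from -0.28 without EGC line 7 to 0.27 without PGC library 2, so its sign was not stable. Of 82 members that passed the expression filter of 1 FPKM in 2 libraries, Rps2 fell and Rps3a3 rose in limma at a Benjamini-Hochberg adjusted p below 0.05, beside 0.74% of all tested genes called. Rps3a3 passed that filter only through the EGC libraries, where it is high, so its part in the counts of EGC comparisons is read as a description. With no filter Rps3a3 still passed in all 3 EGC comparisons, whereas Rps2 and Rpl3 passed in none. At an unadjusted p below 0.05 there were 13 of 82 members, or 15.9%, against 17.2% of all genes. Both EGC libraries lay above both PGC libraries in 16 of 82 members, where the same holds for 24.1% of all genes, and below both in 17, against 20% of all genes. With FPKM divided by the library sum the counts were 22 and 13, against 25.5% and 18.7% of all genes. They were 15 and 21 with equal library medians, against 21.5% and 23.0%.

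Rps2 encodes a small subunit protein at the entry of the messenger RNA channel (chromosome 17, 24718116 to 24721929, GRCm38). It was at 2.17 and 19.8 FPKM in EGC lines 4 and 7, 567 and 492 FPKM in iPGCs, 507 and 309 FPKM in PGCLCs, and 143 and 245 FPKM in PGCs. The EGC libraries stood below the 6 others, and the EGC lines themselves differed by a wide margin. Its relative log2 difference was -4.60 ± 0.78 against PGCs (limma adjusted p = 0.0488), -5.62 ± 0.78 against iPGCs (adjusted p = 0.0400) and -5.23 ± 0.78 against PGCLCs, where it did not pass (adjusted p = 0.0534). The call against PGCs was lost without EGC line 4 (adjusted p = 0.215) and held without EGC line 7 (adjusted p = 0.0449). Rps2 shares windows with 71 pseudogenes and has 43.6% unique windows, and the part of these copies in the difference was not tested.

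Rps3a3 moved the other way. It is a single-exon entry of 795 bases on chromosome 13 (108670603 to 108671397, plus strand, GRCm38), annotated as a processed pseudogene of Rps3a1, which encodes the small subunit protein S3a. It was at 63.3 and 82.7 FPKM in EGCs, 0.990 and 0.588 FPKM in iPGCs, 0.848 and 0.258 FPKM in PGCLCs, and 0.507 and 0.327 FPKM in PGCs. The EGC libraries were above 60 FPKM and the other 6 below 1 FPKM. The relative log2 difference was 5.63 ± 0.58 against PGCs (adjusted p = 0.00714), 5.77 ± 0.58 against iPGCs (adjusted p = 0.0134) and 5.97 ± 0.58 against PGCLCs (adjusted p = 0.0111). With no filter on expression, so that entry to the test did not depend on the EGC level, the limma adjusted p was 0.0220 against PGCs, 0.0394 against iPGCs and 0.0312 against PGCLCs. In the limma fit of the EGC and PGC libraries alone the call against PGCs was lost (adjusted p = 0.203).

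The parent gene Rps3a1 on chromosome 3 was lower in EGC libraries than in the 6 others without passing the test. It was at 19.5 and 23.8 FPKM in EGCs, 90.4 and 57.4 FPKM in iPGCs, 96.0 and 53.8 FPKM in PGCLCs, and 51.4 and 63.1 FPKM in PGCs. The relative log2 difference against PGCs was -1.43 ± 0.46 (adjusted p = 0.194). Summed, both entries came to 82.8 and 106 FPKM in EGCs, 91.4 and 58.0 FPKM in iPGCs, 96.9 and 54.1 FPKM in PGCLCs, and 51.9 and 63.5 FPKM in PGCs, so that the EGC sums overlapped those of iPGCs and PGCLCs. Rps3a3 supplied 76.4% and 77.7% of that sum in EGCs and 0.477% to 1.08% in the other 6 libraries. The coding sequence of Rps3a1 and the Rps3a3 entry differ at 8 of 791 aligned bases, an identity of 98.99%. Unique windows made up 29.0% of those of Rps3a1 and 34.9% of those of Rps3a3. The stretch below, from GRCm38, is shown because no other 90 bases of the pair hold more differences, and even here they number 2, in capitals.
Rps3a1 (chr3:86141333-86141422, minus strand): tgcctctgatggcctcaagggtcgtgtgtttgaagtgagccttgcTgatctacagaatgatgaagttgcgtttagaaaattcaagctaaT
Rps3a3 (chr13:108670773-108670862, plus strand): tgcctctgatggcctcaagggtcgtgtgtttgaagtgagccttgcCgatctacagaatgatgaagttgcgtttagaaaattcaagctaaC
EGCs and PGCs carry the same strain label, and PGC libraries had Rps3a3 at 0.507 FPKM or less. The part of strain in the difference was not tested. Whether the EGC value holds transcripts of the copy or reads of Rps3a1 was not tested.

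Next to these, Rpl29 had the most negative difference between EGCs and PGCs. Rpl29, a large subunit protein that mice can live without at reduced size, was at 0.560 and 1.92 FPKM in EGCs, 56.5 and 79.5 FPKM in iPGCs, 75.3 and 45.3 FPKM in PGCLCs, and 4.55 and 65.9 FPKM in PGCs. The EGC libraries were below all others, and the PGC libraries differed from each other more than PGC library 2 did from iPGCs. The relative difference against PGCs was -3.24 ± 1.02 (adjusted p = 0.174), and without PGC library 1 the limma difference passed (adjusted p = 0.0259). Rpl27 followed at -2.78 ± 1.17 (adjusted p = 0.282), with 1.81 and 22.2 FPKM in EGCs against 140 and 18.9 FPKM in PGCs, where 1 PGC library stood far above the rest. Members with positive differences that did not pass were Rpl23a (1.80 ± 0.56), Rpl28 (1.70 ± 0.73), Rpl27a (1.66 ± 0.68) and Rps7 (1.57 ± 0.62), with adjusted p from 0.153 to 0.270.

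The iPGCs were compared with PGCs to ask how cells made in hanging drops relate to endogenous germ cells. The relative median of the members was 0.23, and no member passed in limma, beside 0.794% of all tested genes called, and 17 of 82 had an unadjusted p below 0.05 (20.7%, against 19.5% of all genes). Both iPGC libraries lay above both PGC libraries in 51 of 82 members, against 39.4% of all genes, and below both in 5, against 13.1%. With FPKM divided by the library sum these counts were 39 and 7, against 33.7% and 17.35% of all genes. With equal library medians they were 23 and 12, against 24.9% and 25.7%, so the size of the excess of higher members depended on the scaling. The share of lower members was below that of all genes under each scaling. Rps18, of the head of the small subunit, had the largest positive difference at 2.05 ± 0.53 (adjusted p = 0.0720), with 488 and 279 FPKM in iPGC libraries against 49.8 and 81.6 FPKM in PGC libraries. Every iPGC value of Rps18 was above every PGC value. The next were Rpl39l (1.85 ± 1.17), Rps21 (1.83 ± 0.53, with 337 and 291 FPKM in iPGC libraries against 48.1 and 82.2 FPKM in PGC libraries), Rpl38 (1.74 ± 0.66) and Rpl19 (1.67 ± 0.74). The most negative were Rpl15 (-2.53 ± 0.68, with 5.81 and 5.74 FPKM in iPGC libraries against 50.5 and 14.6 FPKM in PGC libraries), Rpl27 (-2.27 ± 1.17), Rps27 (-1.63 ± 0.60), the pseudogene entry Rps12l2 (-1.39 ± 0.58) and Rpl9 (-1.22 ± 0.79), none of which passed.

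PGCLCs, which were made by way of epiblast-like cells, were set against the same PGC libraries. The relative median was 0.28, and no member passed in limma, beside 1.06% of all tested genes called. At an unadjusted p below 0.05 there were 19 of 82 members, or 23.2%, against 19.5% of all genes. Both PGCLC libraries lay above both PGC libraries in 35 members, against 33.5% of all genes, and below in 5, against 11.8%. With equal library medians the counts were 23 and 14, against 19.3% and 25.2% of all genes. Division by the library sum gave 32 and 10, against 26.8% and 16.6%. Without PGCLC library 1 the median of the members before subtraction of the shift was 0.18 in place of 0.71. It was 0.36 without PGC library 1, 0.37 with FPKM divided by the library sum, 0.28 with quantile normalization and 0.17 with equal library medians, so its size moved with libraries and scaling alike. The largest positive differences were those of Rpl39l (3.18 ± 1.17, adjusted p = 0.145), Rpl23a (2.06 ± 0.56, adjusted p = 0.0726), Rpl38 (1.99 ± 0.66), Rps23 (1.88 ± 0.63) and Rps18 (1.86 ± 0.53). Rpl23a, where the signal recognition particle docks on the large subunit, was at 6.75 and 9.71 FPKM in PGCLCs against 0.582 and 0.640 FPKM in PGCs. Rpl38, whose loss in Tail-short mice disturbs the pattern of the axial skeleton, was at 10.8 and 44.8 FPKM in EGCs, 70.7 and 74.8 FPKM in iPGCs, 115 and 62.4 FPKM in PGCLCs, and 12.4 and 18.1 FPKM in PGCs. Its iPGC and PGCLC libraries were all above its EGC and PGC libraries. The most negative were Rpl27 (-2.74 ± 1.17), Rpl15 (-2.23 ± 0.68), Rps27a (-2.02 ± 0.85) and Rpl28 (-1.88 ± 0.73).

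For Rpl39l, Rpl29 and Rpl18 the result depended on the PGC library used. Without PGC library 2 the limma fit rests on PGC library 1 as the lone PGC sample. The log2 differences of iPGCs before subtraction of the shift were then 4.31 for Rpl39l, 3.61 for Rpl29 and 2.83 for Rpl18. For PGCLCs they were 5.60, 3.42 and 2.79 in the same order. PGC library 2 had Rpl39l at 19.7 FPKM and Rpl29 at 65.9 FPKM, against 0.309 and 4.55 FPKM in library 1. Rpl18 was at 598 and 609 FPKM in iPGCs, 668 and 515 FPKM in PGCLCs, and 84.2 and 318 FPKM in PGCs. In all 3 genes PGC library 1 was the lower of the PGC libraries. This follows from their choice, since they were picked for their differences with library 1 as the lone PGC sample. Over the 80 ribosomal protein genes the median was also lower in PGC library 1, at -0.44 for library 1 minus library 2. The part of other cells in the difference was not tested.

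PGCLCs and iPGCs were made from the same stem cell strain by different routes. The members' differences were the narrowest of the 6 comparisons, with a relative median of 0.00 and a 25th to 75th percentile of -0.22 to 0.26. Over all tested genes that range was -0.46 to 0.45, also the narrowest of the 6. No member passed in limma, beside 0.018% of all tested genes called. At an unadjusted p below 0.05 there were 3 members, Rpl28, Rps27 and Rps12l2, or 3.66% of 82, against 4.68% of all genes. Both PGCLC libraries lay above both iPGC libraries in 11 members, against 17.3% of all genes, and below in 6, against 19.6%. With FPKM divided by the library sum the counts were 10 and 20, against 15.1% and 22.3% of all genes. They were 10 and 12 with equal library medians, against 16.5% and 20.7%. Rpl28, a large subunit protein, was at 0.407 and 1.29 FPKM in PGCLCs against 14.6 and 6.57 FPKM in iPGCs (-2.59 ± 0.73, adjusted p = 0.812). It was at 17.1 and 14.3 FPKM in EGCs and 1.76 and 7.69 FPKM in PGCs, so the PGCLC libraries were the lowest of the 8. Rps27 was at 3.79 and 0.963 FPKM in PGCLCs and listed at 0 in both iPGC libraries, and the pseudogene entry Rps12l2 was at 2.20 and 1.10 FPKM in PGCLCs and likewise listed at 0 in iPGCs. An entry at 0 may be a failed estimate.

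EGCs were next set against iPGCs. Rps2 and Rpl3 fell and Rps3a3, which entered through its EGC level, rose, 3 of 82 members beside 0.117% of all tested genes called, and 18 members had an unadjusted p below 0.05 (22.0%, against 10.3% of all genes). The relative median was -0.29. Both EGC libraries lay below both iPGC libraries in 49 members, against 39.5% of all genes, and above in 9, against 10.8%. With equal library medians 34 were lower, against 23.6% of all genes, and 14 higher, against 21.8%. Division by the library sum gave 35 lower, against 28.45%, and 14 higher, against 16.9%.

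Rpl3 encodes a large subunit protein that reaches the peptidyl transferase centre (chromosome 15, 80077791 to 80091868, GRCm38). It was at 1.19 and 2.02 FPKM in EGCs, 54.2 and 32.1 FPKM in iPGCs, 61.9 and 35.8 FPKM in PGCLCs, and 8.50 and 11.1 FPKM in PGCs. No groups overlapped except iPGCs and PGCLCs, and the PGC level lay between those of EGCs and the stem cell-derived groups. The relative log2 difference was -3.65 ± 0.54 against iPGCs (limma adjusted p = 0.0445) and -3.84 ± 0.54 against PGCLCs (adjusted p = 0.0390), and against PGCs it was -2.13 ± 0.54 (adjusted p = 0.111). Both calls were lost in the limma fit of the compared groups alone (adjusted p = 0.110 against iPGCs and 0.145 against PGCLCs). They were also lost in limma with equal library medians (adjusted p = 0.0524 against iPGCs and 0.0552 against PGCLCs). Leaving out either EGC line also ended both calls. The log2 difference before subtraction of the shift was then -3.82 without line 4 and -4.28 without line 7 against iPGCs. Against PGCLCs it was -3.99 and -4.46 in the same order. Rpl3 shares windows with 26 pseudogenes and has 32.9% unique windows, and their part was not tested.

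Against iPGCs, Rpl29 (-4.59 ± 1.02, adjusted p = 0.248), Rpl39l (-3.47 ± 1.17, adjusted p = 0.339) and Rpl19 (-1.76 ± 0.74, adjusted p = 0.386) were with Rps2 and Rpl3 the 5 most negative differences. With PGC library 1 or 2 left out of the limma fit, Rpl29 passed here (adjusted p = 0.0131 and 0.0127), when a single PGC library adds nothing to the estimated error. Positive differences that did not pass were those of Rps12l2 (2.26 ± 0.58), Rpl15 (1.65 ± 0.68), Rpl21 (1.43 ± 0.67) and Rps27 (1.34 ± 0.60).

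EGCs against PGCLCs rests on the same EGC libraries. Rpl3 fell and Rps3a3, again entered through its EGC level, rose, 2 of 82 members beside 0.0993% of all tested genes called, and 19 members had an unadjusted p below 0.05 (23.2%, against 13.9% of all genes). The relative median was -0.28. Both EGC libraries lay below both PGCLC libraries in 42 members, against 34.2% of all genes, and above in 7, against 11.8%. With equal library medians the counts were 22 and 14, against 19.8% and 23.6% of all genes. Division by the library sum gave 28 and 14, against 22.8% and 19.0%. Rpl39l (-4.78 ± 1.17, adjusted p = 0.155) and Rpl29 (-4.42 ± 1.02, adjusted p = 0.141) did not pass, and both passed with PGC library 1 left out (adjusted p = 0.0268 and 0.0157) or with PGC library 2 left out (adjusted p = 0.0303 and 0.0168). Rpl28 had the largest positive difference after Rps3a3 (3.59 ± 0.73, adjusted p = 0.155). In the limma F test for any difference between the 4 groups, Rps3a3 (adjusted p = 0.0146), Rpl3 (adjusted p = 0.0316) and Rps2 (adjusted p = 0.0367) passed, 3 of 82 members beside 0.505% of all tested genes, with the same limit on Rps3a3.

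**Figure D4:**
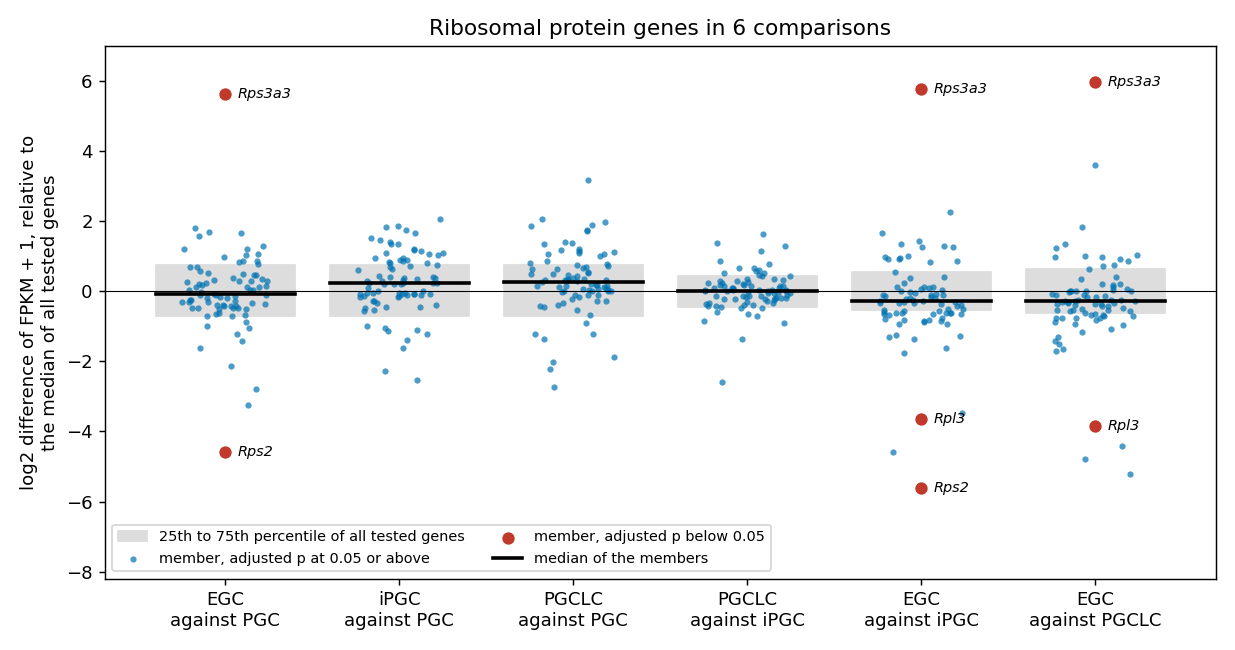
Log2 difference of FPKM + 1 for 82 members in 6 comparisons, each relative to the median of all tested genes. Grey boxes span the 25th to 75th percentile of all tested genes, black lines are the members' medians, and red points passed limma at an adjusted p below 0.05. The medians lie between -0.29 and 0.28, inside the grey boxes, and the called points are Rps3a3, Rps2 and Rpl3.

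**Figure D5:**
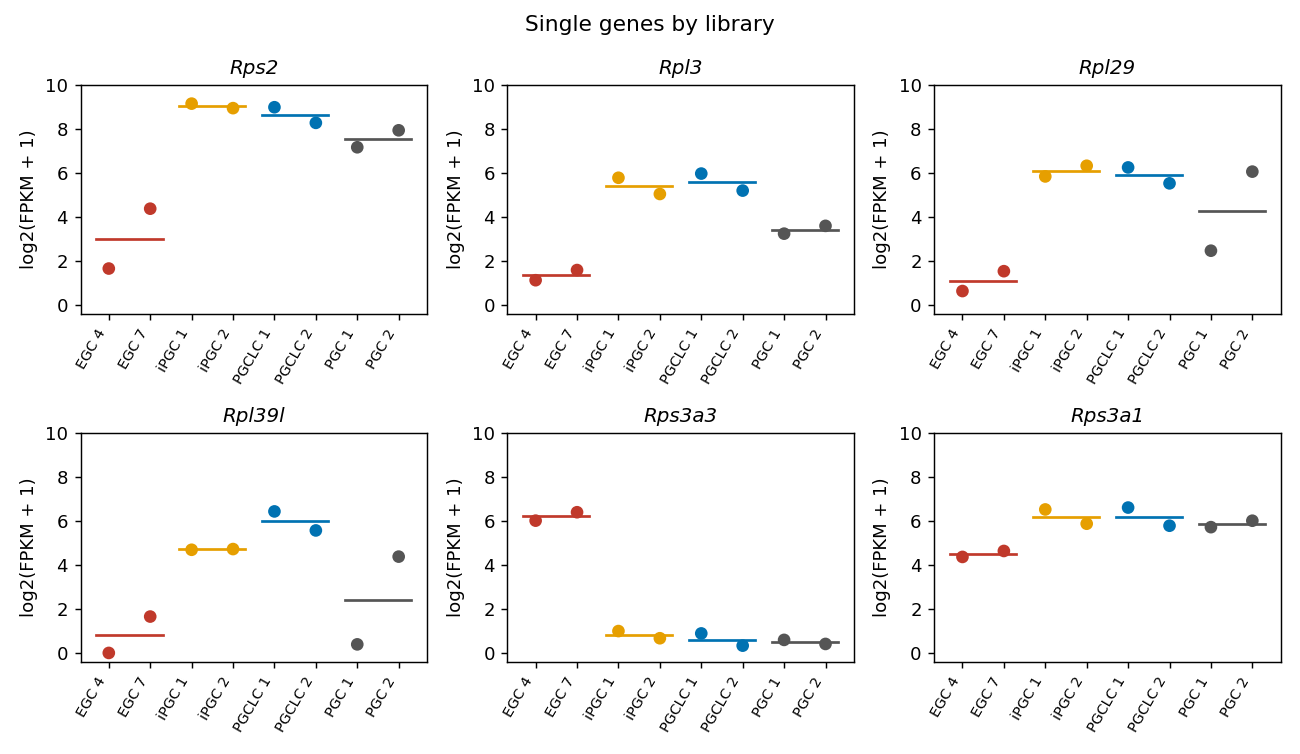
Log2(FPKM + 1) in each library for 6 members, with lines at the group means of 2 libraries. Rps2, Rpl3, Rpl29 and Rps3a1 are lowest in EGC lines 4 and 7, Rps3a3 is high there and below 1 FPKM in the other 6 libraries, and the PGC libraries disagree on Rpl29 and Rpl39l.

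Paralogues showed how far the composition of the family's RNA differed. Rpl39l, a paralogue of the exit tunnel protein gene Rpl39 that is known from male germ cells, was at 0 and 2.14 FPKM in EGCs, 24.7 and 25.3 FPKM in iPGCs, 84.95 and 46.2 FPKM in PGCLCs, and 0.309 and 19.7 FPKM in PGCs. Both PGCLC libraries were above both iPGC libraries, which were above EGCs and PGCs, and EGCs and PGCs overlapped. Rpl39 itself was at 91.9 and 120 FPKM in EGCs, 160 and 155 FPKM in iPGCs, 252 and 133 FPKM in PGCLCs, and 83.2 and 136 FPKM in PGCs. Rpl39l made up 0% and 1.76% of the sum of both in EGCs, 13.4% and 14.0% in iPGC libraries, 25.2% and 25.8% in PGCLCs, and 0.371% and 12.6% in PGCs. This pair differs more in sequence than Rps3a1 and Rps3a3 do. The coding sequences differ at 22 of 152 aligned bases, an identity of 85.5%, and no 50-base window of Rpl39l was found in another gene. The stretches below, from GRCm38, show the spacing of the differences in capitals. That of Rpl39 spans an intron.
Rpl39 (chrX:37082712-37084036, minus strand): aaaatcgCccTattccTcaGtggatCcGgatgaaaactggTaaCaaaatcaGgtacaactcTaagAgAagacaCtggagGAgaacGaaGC
Rpl39l (chr16:10174365-10174454, plus strand): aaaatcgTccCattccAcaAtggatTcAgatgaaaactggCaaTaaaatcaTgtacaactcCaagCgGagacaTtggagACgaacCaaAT
Rpl39l passed no test with all 8 libraries (F test adjusted p = 0.143).

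Rpl22 and Rpl22l1 encode close paralogues of the large subunit, and the first is known in mouse to restrain the second. Rpl22l1 was at 15.7 and 20.4 FPKM in EGCs, 46.0 and 31.0 FPKM in iPGCs, 54.1 and 32.9 FPKM in PGCLCs, and 39.1 and 42.5 FPKM in PGCs, lowest in the EGC libraries. Its share of the pair was 2.62% and 4.35% in EGCs, 5.75% and 5.18% in iPGC libraries, 6.40% and 7.27% in PGCLCs, and 9.94% and 8.66% in PGCs, with no overlap between EGCs and PGCs. The relative difference of Rpl22l1 between EGCs and PGCs was -1.21 ± 0.46 (adjusted p = 0.256). Rpl22l1 has 41.1% unique windows and shares windows with 3 pseudogenes, and the part of these copies in its values was not tested.

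In the pair of Rps27 and Rps27l the paralogue, a target of p53, held 98.5% to 100% of the sum in each library. Rps27l was at 255 and 154 FPKM in EGCs, 285 and 225 FPKM in iPGCs, 244 and 172 FPKM in PGCLCs, and 56.5 and 187 FPKM in PGCs. Rps27, with 53.8% unique windows and 8 sharing pseudogenes, was at 3.79 FPKM or less in all 8. Rpl7l1 held 6.17% and 24.8% of its sum with Rpl7 in EGCs, 20.2% and 30.5% in iPGC libraries, 28.9% and 27.9% in PGCLCs, and 7.33% and 17.6% in PGCs.

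Members with a known role of their own, taken by name, did not pass in limma in any of the 6 comparisons. The stalk proteins Rplp0, Rplp1 and Rplp2 recruit the elongation factors. Rplp0 was at 53.4 and 76.0 FPKM in EGCs, 158 and 113 FPKM in iPGCs, 202 and 93.0 FPKM in PGCLCs, and 69.005 and 96.8 FPKM in PGCs. Its relative differences ran from -0.71 ± 0.48 for EGCs against PGCLCs to 0.30 ± 0.48 for PGCLCs against PGCs. Rplp1 and Rplp2 lay between -0.71 and 0.37 in the 6 comparisons.

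Rpl5 and Rpl11, which bind Mdm2 when ribosome assembly fails, had modest levels. Rpl5 was at 12.8 and 22.4 FPKM in EGCs, 10.7 and 11.5 FPKM in iPGCs, 10.8 and 11.9 FPKM in PGCLCs, and 9.58 and 13.1 FPKM in PGCs, with 14.6% unique windows. Rpl11 was at 20.7 and 19.8 FPKM in EGCs, 40.4 and 20.7 FPKM in iPGCs, 69.3 and 14.5 FPKM in PGCLCs, and 17.6 and 14.9 FPKM in PGCs. Rpsa, the laminin receptor precursor of the small subunit, was at 6.06 and 4.12 FPKM in EGCs against 11.8 and 9.91 FPKM in PGCs (-1.04 ± 0.54, adjusted p = 0.406). Rps6 stayed between 0.596 and 4.94 FPKM in the 8 libraries.

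Across the 79 tested ribosomal protein genes proper, 7 had their highest group mean in EGCs, 29 in iPGCs, 37 in PGCLCs and 6 in PGCs. When FPKM was divided by the library sum, the counts were 11, 37, 21 and 10 in the same order. The order of iPGCs and PGCLCs thus changed with the scaling, while EGCs and PGCs held few of the maxima either way. The same count was not made over all tested genes. Their median difference against PGCs was also positive, at 0.47 in iPGCs and 0.44 in PGCLCs, so these counts are not read as a trait of the family.

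Other genes of the translation machinery were described from 6 lists, and none of their members passed in limma in any of the 6 comparisons. Of 22 genes with TOP messenger RNAs outside the family, such as elongation factors, 2 had an unadjusted p below 0.05 in EGCs against PGCs, 2 in iPGCs against PGCs and 1 in PGCLCs against PGCs, with relative medians of 0.05, 0.09 and 0.14. Over all tested genes the share at that p was 17.2% in EGCs and 19.5% in both iPGCs and PGCLCs against PGCs, so these counts lay below the background. Eef2, the translocase of elongation, was at 233 and 226 FPKM in EGCs, 416 and 421 FPKM in iPGCs, 317 and 289 FPKM in PGCLCs, and 209 and 216 FPKM in PGCs. Gnb2l1, which encodes the small subunit scaffold Rack1 and is 99.1% unique, was at 1034 and 857 FPKM in EGCs, 1919 and 1774 FPKM in iPGCs, 3049 and 1438 FPKM in PGCLCs, and 1345 and 1410 FPKM in PGCs. Its relative difference was -0.57 ± 0.37 in EGCs against iPGCs and -0.77 ± 0.37 against PGCLCs, and the medians of the 18 most unique members were -0.31 and -0.36 in the same comparisons.

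Ribosome biogenesis genes had relative medians of -0.42 in EGCs, -0.30 in iPGCs and -0.16 in PGCLCs against PGCs, over 46 genes, of which 7, 5 and 7 had an unadjusted p below 0.05, also below those shares. Dkc1, the pseudouridine synthase of box H/ACA particles, was at 35.4 and 54.7 FPKM in EGCs, 50.3 and 66.3 FPKM in iPGCs, 157 and 73.8 FPKM in PGCLCs, and 378 and 142 FPKM in PGCs (-2.43 ± 0.58 for EGCs against PGCs, adjusted p = 0.0983). Bop1, of large subunit maturation, was at 11.1 and 5.14 FPKM in EGCs against 28.8 and 28.5 FPKM in PGCs (-1.85 ± 0.57, adjusted p = 0.174). Nop2, an rRNA methyltransferase, ran the other way in iPGCs, with 34.2 and 28.7 FPKM against 8.89 and 4.84 FPKM in PGCs (1.62 ± 0.48, adjusted p = 0.0806).

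The remaining lists also held no called gene, and their counts at an unadjusted p below 0.05 are to be read against the same 17.2%, 19.5% and 19.5% of all genes. Over 29 initiation factors the relative median was -0.27 in EGCs, -0.30 in iPGCs and -0.20 in PGCLCs against PGCs, with 3, 4 and 3 genes at an unadjusted p below 0.05. For 20 tested genes of RNA polymerase I and 5S transcription it was -0.36, -0.10 and -0.11, with 3, 1 and 1. For 11 tested regulators of TOP translation and growth it was 0.08, -0.27 and 0.02, with 3, 2 and 2, and Mycn, a transcription factor that drives ribosome production, was at 20.7 and 20.3 FPKM in EGCs against 43.8 and 51.8 FPKM in PGCs (-1.24 ± 0.42, adjusted p = 0.212). For 7 snoRNA host genes outside the family it was 0.58, -0.44 and -0.08, with 2 in each.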

How the data were processed

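Per the labels, RNA was amplified with the Ovation RNA-Seq System V2, and the 8 multiplexed libraries were read from 1 end for 50 bases on 2 lanes. The authors deposited 1 table of FPKM, with 1 column per library. The submitters' processing notes name TopHat2, Cufflinks and GRCm38 (mm10), while the sources used here give no versions, annotation or use of strand. Values are not counts, so no count test was used, and read totals are not stated.

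The table had 20171 entries for 20153 identifiers, and the entry with the highest mean was kept. The limma test (version 3.58.1 in R 4.3.3, with a variance trend and robust moderation) took log2(FPKM + 1) of the 11083 genes that reached 1 FPKM in 2 or more libraries, and used all 8 libraries, leaving 4 residual degrees of freedom. Two-sided p-values of all tested genes went into 1 Benjamini-Hochberg adjustment per comparison, with a threshold of 0.05. A log2 difference on this scale understates the change of low genes. The limma step was checked on simulated data.

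Members and lists were chosen with earlier results of these data known. Members named are those past the threshold, the 5 largest differences each way, the 5 highest and lowest levels, paralogues, entries at 0 and a fixed set of proteins. Unique windows were counted over GENCODE M21 transcripts. Alternatives were pseudocounts of 0.1 and 5, other filters and scalings, no variance trend, a fit of the compared groups alone, leaving out libraries in turn and the replicate number as a block. The 80 annotated genes alone, the genes with at least 80% unique windows and other scalings for counts of groups apart were chosen after seeing the data. Some genes that fall under these rules are not reported here, and sums and medians over the members include them.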

Additional observations from a re-analysis of the deposited data

How the results depend on the processing

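In 7 results for called genes (Rps2, Rps3a3 and Rpl3 in EGCs against the other groups) the sign was kept under every alternative run, while the call was lost in many of them. Rps3a3 passed in 14 of 15 alternatives against PGCs and in 12 of 15 against iPGCs and against PGCLCs. It entered the test only through its EGC level, and gave no value where an EGC line was left out, so these counts say little of stability. With no filter its adjusted p was 0.0220 to 0.0394. Rps2 passed in 5 of 17 against PGCs (adjusted p 0.0350 to 0.392) and in 8 of 17 against iPGCs, and Rpl3 in 6 of 17 against iPGCs and against PGCLCs. For the changes below the cause was not tested, and a library left alone in its group is assumed to vary like the others.

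EGCs against PGCs had 2 called members, and 1 with a pseudocount of 0.1 or 5, no filter, no variance trend or only the 80 annotated genes, 0 in the fit of the 2 groups compared, and 0 to 2 with a library left out. EGCs against iPGCs had 3, and 1 with a pseudocount of 0.1, no filter, no variance trend or the fit of these groups alone, and 0 to 4 with a library left out. EGCs against PGCLCs had 2, and 1 with a pseudocount of 0.1, no filter, equal library medians, no variance trend, the fit of these groups alone or the 80 annotated genes, and 0 to 5 with a library left out. The F test called 3, 1 with no filter and 0 to 5 with a library left out. Against PGCs, iPGCs and PGCLCs had 0, and 0 to 3 with a library left out. PGCLCs against iPGCs had 0 in each. With equal library medians, a pseudocount of 5 or the 80 annotated genes, EGCs against iPGCs had 2. The counts of 0 came without EGC line 4 in each EGC comparison and in the F test, and also without either iPGC library (EGCs against iPGCs and the F test) or either PGCLC library (EGCs against PGCLCs). The highest counts of 3 to 5 came without PGC library 2, or for EGCs against iPGCs and PGCLCs without either PGC library. The lowest median for PGCLCs against PGCs, given next, came without PGCLC library 1, and that for EGCs against PGCLCs without PGCLC library 2.

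The members' median log2 difference before the shift was 0.70 for iPGCs and 0.71 for PGCLCs against PGCs, and 0.20 and 0.17 with equal library medians. Leaving out a library gave 0.18 to 1.10 for PGCLCs against PGCs and -1.16 to -0.29 for EGCs against PGCLCs, for which quantile normalization gave -0.22 in place of -0.67. With each library scaled to the same sum, the members' summed FPKM was 11374 in place of 9671 in EGC line 7 and 9719 in place of 8331 in PGC library 1.

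Replicate numbers of iPGCs, PGCLCs and PGCs gave no sign of pairing (correlation of deviations between 0.058 and -0.030). With the number as a block, 6 libraries gave 0 called members in each of 3 comparisons, as without it. Adding pseudogenes named -ps to their parents was not run, since the table used here held 0 such entries. Exact depths are unknown and limit the low members most.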

Other observations

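Entries related to the family that the choice by symbol leaves out were also read. Rpl10l, the autosomal paralogue of the X-linked Rpl10 that is known from meiotic male germ cells of the mouse, was at 1.48 and 1.27 FPKM in EGCs, 5.77 and 7.32 FPKM in iPGCs, 7.30 and 11.03 FPKM in PGCLCs, and 0.0801 and 1.84 FPKM in PGCs. Its share of the sum with Rpl10 was 8.56% and 2.99% in EGCs, 22.8% and 31.7% in iPGC libraries, 34% and 38.5% in PGCLCs, and 0.474% and 3.88% in PGCs. Like Rpl39l, it was higher in both PGCLC and both iPGC libraries than in all EGC and PGC libraries. This pattern was noticed after the values were seen and was not tested as such. Rpl10l passed in limma in none of the 6 comparisons (adjusted p = 0.0961 for PGCLCs and 0.145 for iPGCs against PGCs).

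Rpl36al, a paralogue of Rpl36a, was at 94.8 and 101 FPKM in EGCs, 126 and 97.8 FPKM in iPGCs, 216 and 84.975 FPKM in PGCLCs, and 62.017 and 66.3 FPKM in PGCs. The entry spelled Rps4y2 was at 38.4 and 34.2 FPKM in EGCs, 132 and 152 FPKM in iPGCs, 86.8 and 83.0 FPKM in PGCLCs, and 32.6 and 86.5 FPKM in PGCs. The entry spelled RPL24 in capitals, which carries the identifier of Rpl24 in GENCODE M21, was at 1.06 and 2.78 FPKM in EGCs, 3.85 and 1.84 FPKM in iPGCs and 5.59 and 10.3 FPKM in PGCLCs, and was listed at 0 in both PGC libraries. It has 18.3% unique windows.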
